A study of Chlamydomonas reinhardtii with 21 samples.

Results

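In the nuclear genome of Chlamydomonas reinhardtii, 58 genes were raised in the mutant UVM4 and stayed below the same cut in the mutant UVM11. They were chosen from 15425 genes with a mean abundance above 0.1 FPKM (fragments normalized to gene length and library size) over all cultures, out of 17741 gene models in the deposited table. For each strain of batch 1 the mean of log2(FPKM + 0.1) was taken, and a member had a difference UVM4 minus Elow47 above 1 and a difference UVM11 minus Elow47 below 1. The cut in UVM4 was passed by 180 genes, of which 122 passed it in UVM11 as well, while 96 further genes passed it in UVM11 and not in UVM4. Apart from the abundance filter, the values of batch 1 chose the members. All comparisons among Elow47, UVM4 and UVM11 of that batch are therefore given here as a description without a test.

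Poly(A) mRNA was sequenced from 21 cultures in liquid TAP medium under continuous light. Batch 1 held 4 cultures each of Elow47, UVM4 and UVM11. Elow47, with the wild-type allele of SRTA, was made by transforming CC-4350, which lacks an intact cell wall and needs arginine, with ARG7 and with CRY1-1, a marker for emetine resistance. The mutants UVM4, with the allele srta-2, and UVM11, with srta-1, were obtained from Elow47 by UV mutagenesis and carry its transgenes. In batch 2, UVM11 was grown again, beside UVM11-C1 and UVM11-C9, with 3 cultures of each strain, and these complemented strains are transformants of UVM11 with a FLAG-tagged SRTA wild-type allele under its native promoter and a hygromycin resistance gene. Each strain is 1 clone, and both mutants carry other UV-induced mutations, so that the srta allele and the clone cannot be told apart. UVM4 and Elow47 were sequenced in batch 1 alone, and no UVM4 strain with a wild-type SRTA allele was analysed here. The study names the cultures of a strain biological replicates.

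SRTA encodes a sirtuin, an enzyme that removes acetyl groups from lysine residues of proteins such as histones with NAD+ as a co-substrate. Deacetylated histones are a hallmark of compact chromatin with little transcription. In Chlamydomonas, transgenes that integrate into the nuclear genome are commonly silenced, and UVM4 and UVM11 are used as expression strains because they escape much of this silencing. In batch 1, Elow47 had 3.45 ± 0.572 FPKM of SRTA itself, UVM4 had 3.496 ± 0.324 FPKM and UVM11 had 3.51 ± 0.232 FPKM (SD, n = 4). In batch 2, UVM11 had 2.80 ± 0.137 FPKM, UVM11-C1 had 5.19 ± 0.403 FPKM and UVM11-C9 had 3.48 ± 0.171 FPKM (SD, n = 3). These values are for the gene model, so that srta-1 and the introduced wild-type allele are not separated in the complemented strains. The RefSeq gene table used here gives all 58 members a position and holds no names or descriptions, for members or other genes, so that they are called by their identifiers and no function is given.

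The libraries held FPKM sums between 542464 and 617687, and replicate cultures correlated at 0.992 to 0.998 across genes. Reads per library are unknown, and the relative depth, read from single-fragment steps in 713 genes of low abundance, ranged from 0.827 to 1.26. The members were mostly weakly expressed. The median over members of the mean FPKM in UVM4 was 0.764, against 5.51 over all tested genes, and 33 members were below 1 FPKM in UVM4, as were 13.4% of all tested genes. Of the other members, 19 lay between 1 and 10 FPKM and 6 above 10 FPKM. In Elow47 5 members were listed at 0 in all cultures and 15 in at least 1 culture. The SD of log2(FPKM + 0.1) between Elow47 cultures had a median of 0.37 over members and 0.12 over all tested genes. At such levels a difference of 1 on the log2 scale rests on few fragments and on the pseudocount.

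The difference UVM4 minus Elow47 ranged from 1.01 to 2.73 over the members, with a median of 1.18. In UVM11 the difference from Elow47 ranged from -1.47 to 0.93 with a median of 0.40. Thus 27 members had UVM11 between 0.5 and 1 above Elow47 on the log2 scale, 18 between 0 and 0.5, and 13 below Elow47. The direct difference UVM4 minus UVM11 was above 1 in 25 members and below 0.5 in 16, and its median was 0.84. Across all tested genes 0.499% had such a difference above 1. Near the cuts, Cre09.g392867 was inside with 1.01 in UVM4 and Cre06.g306900 outside with 0.99, as were Cre02.g141186 inside with 1.02 and Cre12.g502900 outside with 0.99. At the cut in UVM11, Cre12.g552950 and Cre06.g261950 were inside with 0.93 each, and Cre12.g545704 with 1.00 and Cre04.g217928 with 1.01 were outside. Cre04.g217928 differed from Elow47 by 2.73 in UVM4, as much as the leading member.

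**Figure D1:**
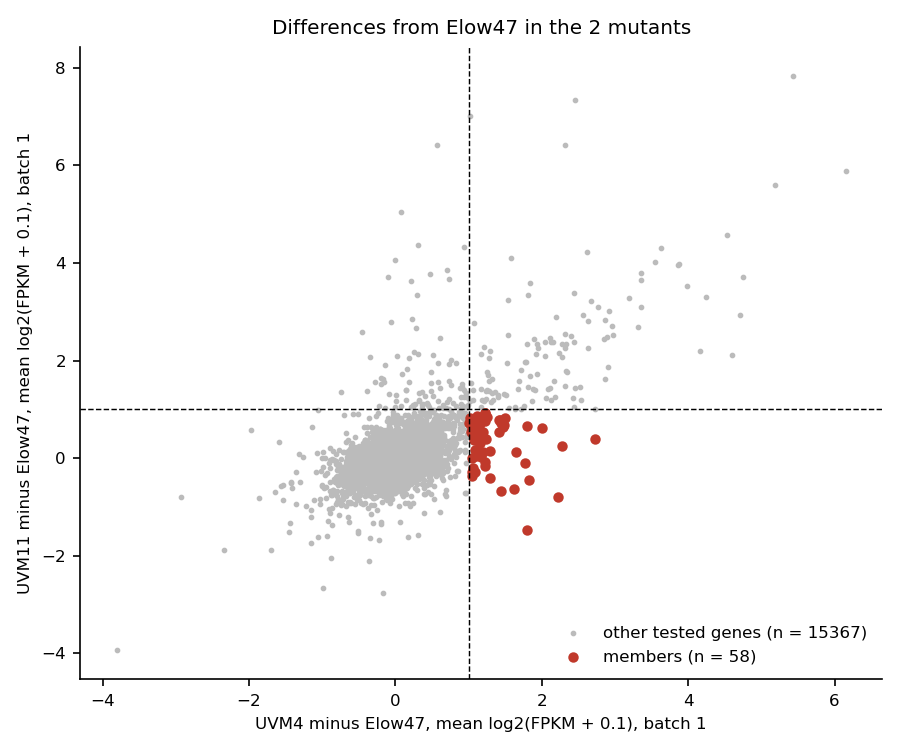
Each point is a gene, with the difference UVM4 minus Elow47 on the x axis and UVM11 minus Elow47 on the y axis, both as means of log2(FPKM + 0.1) in batch 1, and dashed lines mark the cut of 1. The 58 members (red) lie right of the vertical and below the horizontal line, and 27 of them lie between 0.5 and 1 in UVM11, close below the horizontal line.

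In 3 abundant members UVM4 stood above all other strains. Cre03.g176150 (chromosome 3, 4485713 to 4487523) had 102, 99.9, 95.3 and 115 FPKM in the UVM4 cultures and 43.8, 48.0, 43.6 and 47.7 FPKM in Elow47. UVM11 cultures had 49.2, 48.3, 45.6 and 43.4 FPKM in batch 1. All cultures of UVM4 lay above all others of the study, while Elow47 and UVM11 overlapped. Cre07.g355050 (chromosome 7, 6044996 to 6048115) was at 25.6, 28.4, 24.5 and 29.9 FPKM in UVM4, at 11.3, 12.2, 11.9 and 10.7 FPKM in Elow47, and at 8.84, 11.4, 10.9 and 10.4 FPKM in UVM11. Cre17.g728750 (chromosome 17, 3974807 to 3979694) was at 22.4, 20.3, 23.6 and 23.4 FPKM in UVM4, at 9.48, 9.74, 8.84 and 8.24 FPKM in Elow47, and at 10.05, 10.6, 9.34 and 10.2 FPKM in UVM11. In both genes every UVM4 culture was above all other cultures, and Elow47 and UVM11 overlapped.

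Other abundant members were higher in UVM11 as well, without reaching the cut. Cre17.g734757 (chromosome 17, 5025008 to 5029447) had 62.2, 61.5, 61.3 and 59.3 FPKM in UVM4 and 50.1, 48.3, 52.1 and 55.0 FPKM in UVM11, against 27.1, 28.7, 31.1 and 25.8 FPKM in Elow47. On the log2 scale this is 1.12 above Elow47 in UVM4 and 0.87 in UVM11, and the 3 strains did not overlap. Cre02.g089500 (chromosome 2, 2166902 to 2169985) had 20.4, 21.5, 22.3 and 25.0 FPKM in UVM4, 13.1, 12.1, 11.2 and 12.2 FPKM in UVM11, and 8.46, 10.9, 6.13 and 8.37 FPKM in Elow47. Cre03.g157600 (chromosome 3, 2223559 to 2231729) had means of 8.55 ± 0.325 FPKM, 5.71 ± 0.233 FPKM and 3.90 ± 0.178 FPKM in UVM4, UVM11 and Elow47 (SD, n = 4). Cre01.g054750 (chromosome 1, 7580442 to 7583593) was at 3.82 ± 0.281, 2.17 ± 0.223 and 1.32 ± 0.217 FPKM in these strains. In these 4 genes every culture of UVM11 lay between those of Elow47 and UVM4.

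In 4 members every UVM11 culture of batch 1 lay below every Elow47 culture, as in 7.33% of all tested genes. Cre06.g288600 (chromosome 6, 5924072 to 5930840) had 3.36, 3.43, 3.34 and 3.50 FPKM in UVM4, 0.578, 0.646, 0.766 and 0.636 FPKM in Elow47, and 0.373, 0.394, 0.324 and 0.269 FPKM in UVM11. Cre10.g425850 (chromosome 10, 1158096 to 1161387) had 26.5, 22.9, 25.8 and 24.1 FPKM in UVM4, 6.42, 8.62, 8.35 and 8.68 FPKM in Elow47, and 5.66, 5.78, 4.42 and 4.67 FPKM in UVM11. Cre02.g089400 (chromosome 2, 2157080 to 2162325) had 6.18, 4.92, 5.60 and 6.51 FPKM in UVM4, 2.10, 2.39, 2.03 and 1.73 FPKM in Elow47, and 1.33, 0.920, 1.35 and 1.46 FPKM in UVM11. The mean in UVM4 was thus 10.02-fold that in UVM11 for Cre06.g288600 and 4.84-fold for Cre10.g425850.

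The fourth of them, Cre09.g401450 (chromosome 9, 881429 to 887137), had the largest gap between the mutants, 3.27 on the log2 scale. It was at 3.44, 3.18, 2.96 and 3.01 FPKM in UVM4, 0.791, 0.965, 0.762 and 0.815 FPKM in Elow47, while UVM11 of batch 1 had 0.263, 0.251, 0.269 and 0.169 FPKM. In batch 2, however, UVM11 had 3.38, 3.58 and 2.96 FPKM, as high as UVM4. The levels of this gene in UVM11 thus differed between the batches by 3.34 on the log2 scale, more than Elow47 differed from either mutant, and its place among the members holds for batch 1 alone.

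The largest difference from Elow47 was that of Cre17.g743200 (chromosome 17, 6500634 to 6506738), a gene listed at 0 in 3 Elow47 cultures and at 0.00892 FPKM in the remaining one. Its mean outside UVM4 was below 0.1 FPKM, so that it passed the abundance filter only through UVM4. UVM4 had 0.579, 0.557, 0.607 and 0.568 FPKM, and UVM11 had 0.0538, 0.0166, 0.0190 and 0.0503 FPKM. Every UVM11 culture was thus above every Elow47 culture as well. The gene did not meet the cuts with a pseudocount of 1 or of 0.01, so its place among the members rests on the pseudocount of 0.1. In batch 2 no culture was above 0.230 FPKM. Cre07.g335100 (chromosome 7, 3385617 to 3388626) had 0.678, 1.30, 1.496 and 1.25 FPKM in UVM4 and at most 0.242 FPKM in Elow47 and 0.303 FPKM in UVM11 of batch 1. The remaining members among the 10 of largest difference were Cre03.g161250, Cre12.g519651, Cre02.g087500, Cre09.g395450 and Cre12.g489000, with UVM4 means of 0.934 to 1.41 FPKM and Elow47 means of 0.208 to 0.298 FPKM. Among these 5, UVM4 lay above all other cultures of the study.

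**Figure D2:**
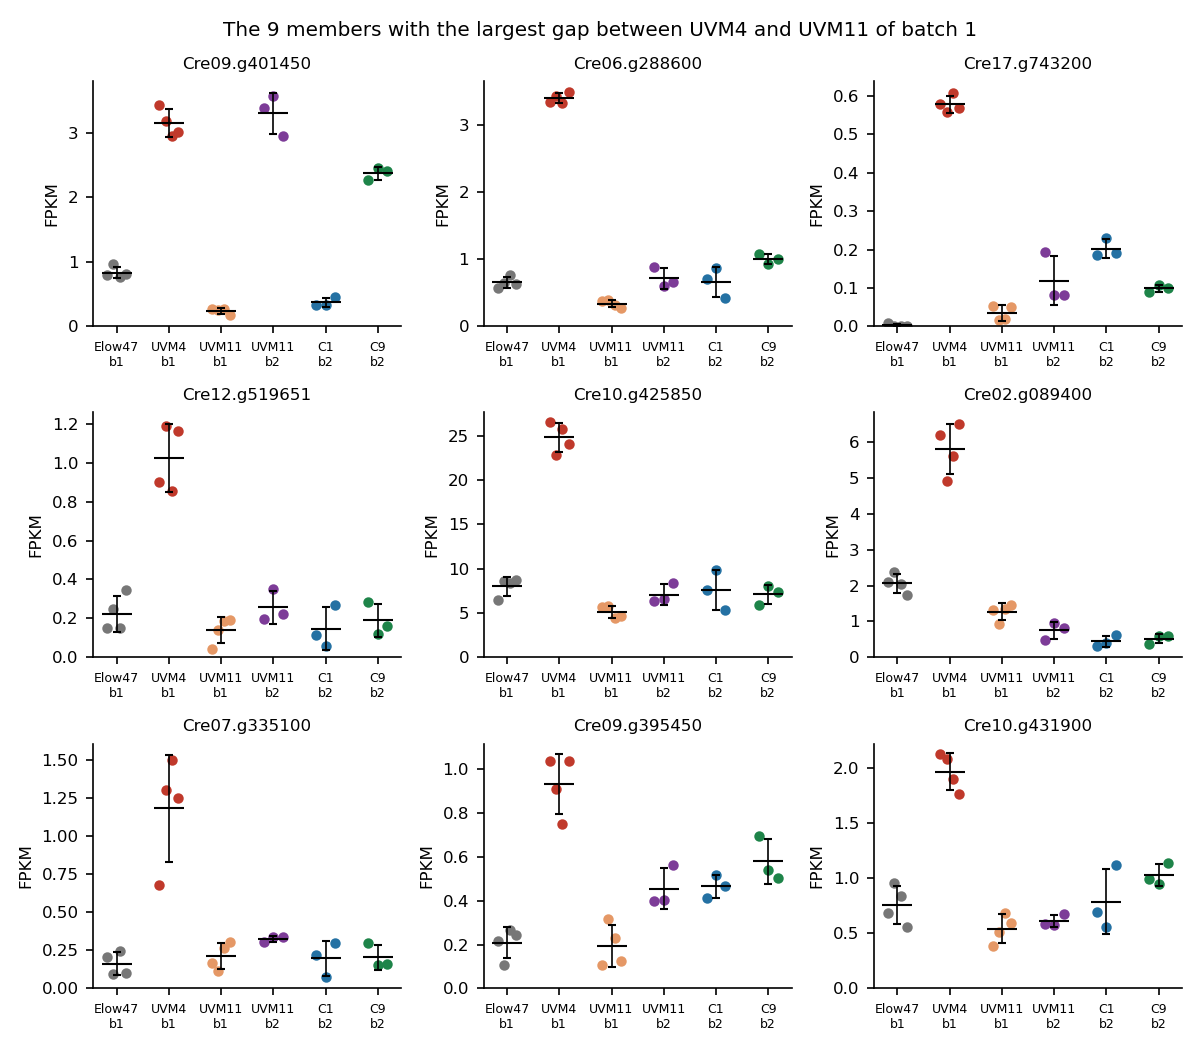
FPKM in each culture (points) with mean and SD (bars) for the 9 members of largest difference between UVM4 and UVM11 of batch 1, by strain and batch (b1, b2), with C1 and C9 for UVM11-C1 and UVM11-C9. In 8 of the panels the 4 UVM4 cultures stand above all others, whereas Cre09.g401450 reached 3.58 FPKM in UVM11 of batch 2.

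In 45 of the 58 members every UVM4 culture lay above every Elow47 culture, a pattern found in 7.44% of all tested genes and tied to the rule. In 33 members every UVM4 culture lay above every UVM11 culture of batch 1 (12.6% of all tested genes), and in 16 every UVM11 culture lay above every Elow47 culture (6.94%). In 18 members UVM4 lay above all other cultures of both batches, as in 1.59% of all tested genes. UVM4 had the highest mean of the 6 groups in 23 members (39.7%, against 15.8% of all tested genes), a surplus that is tied to the rule. UVM11-C9 was highest in 16 members (27.6%, against 23.4% of all tested genes), UVM11-C1 in 10 (17.2% against 18.8%) and UVM11 of batch 2 in 9 (15.5% against 17.3%), which is near the share in all genes. The rule places UVM4 above Elow47 and UVM11 of batch 1, and neither of these was highest in any member. Of the members, 10 met the cuts under each of 18 other settings, namely Cre03.g176150, Cre17.g734757, Cre07.g355050, Cre10.g425850, Cre17.g728750, Cre02.g089500, Cre02.g089400, Cre01.g054750, Cre06.g288600 and Cre09.g401450. With a pseudocount of 1 these 10 were all that stayed, in a list of 20 genes.

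Between batches, UVM11 differed in many members. UVM11 of batch 2 was above UVM11 of batch 1 by more than 1 on the log2 scale in 16 members (4.30% of all tested genes) and below it by more than 1 in 1 member (1.15%). Every culture of batch 2 was above every culture of batch 1 in 24 members (28.5% of all tested genes) and below in 5 (29.5%). Low values in UVM11 of batch 1 were part of the rule, so the surplus of higher members is not a result about them. Relative to Elow47, UVM11 of batch 2 was above the cut of 1 in 25 members, against 5.22% of all tested genes, and its median over members was 0.87. UVM11-C1 was above it in 24 members (4.86% of all tested genes) and UVM11-C9 in 30 (5.07%). The rule also used the Elow47 values, and low Elow47 values raise all 3 counts, so that nothing is read from them. Strain and batch cannot be told apart in such a comparison, because no Elow47 culture was in batch 2. The median over members of the mean FPKM in batch 1 was 0.764 for UVM4, 0.245 for UVM11 and 0.219 for Elow47. In batch 2 it was 0.555 for UVM11, 0.463 for UVM11-C1 and 0.636 for UVM11-C9.

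Cre12.g551552 (chromosome 12, 9625548 to 9630819) had the largest such change. It was at 0.120, 0.245, 0.306 and 0.270 FPKM in UVM11 of batch 1 and at 12.4, 12.1 and 8.52 FPKM in UVM11 of batch 2, while UVM4 had 0.474, 1.13, 0.600 and 0.809 FPKM. Its UVM4 cultures were thus far below UVM11 of batch 2. Chosen after their values were seen, Cre04.g213950 (chromosome 4, 1477727 to 1489596) was at 0.231 ± 0.0587 FPKM in batch 1 (SD, n = 4) and 3.65 ± 0.601 FPKM in batch 2 (SD, n = 3), and Cre16.g648200 (chromosome 16, 886828 to 893823) at 0.209 ± 0.164 FPKM and 2.88 ± 1.03 FPKM. Conversely, Cre16.g689851 (chromosome 16, 3832400 to 3843471), the member that was lower in batch 2, was at 0.778, 0.798, 0.748 and 0.774 FPKM in UVM11 of batch 1 and at 0.205, 0.106 and 0.104 FPKM in batch 2.

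**Figure D3:**
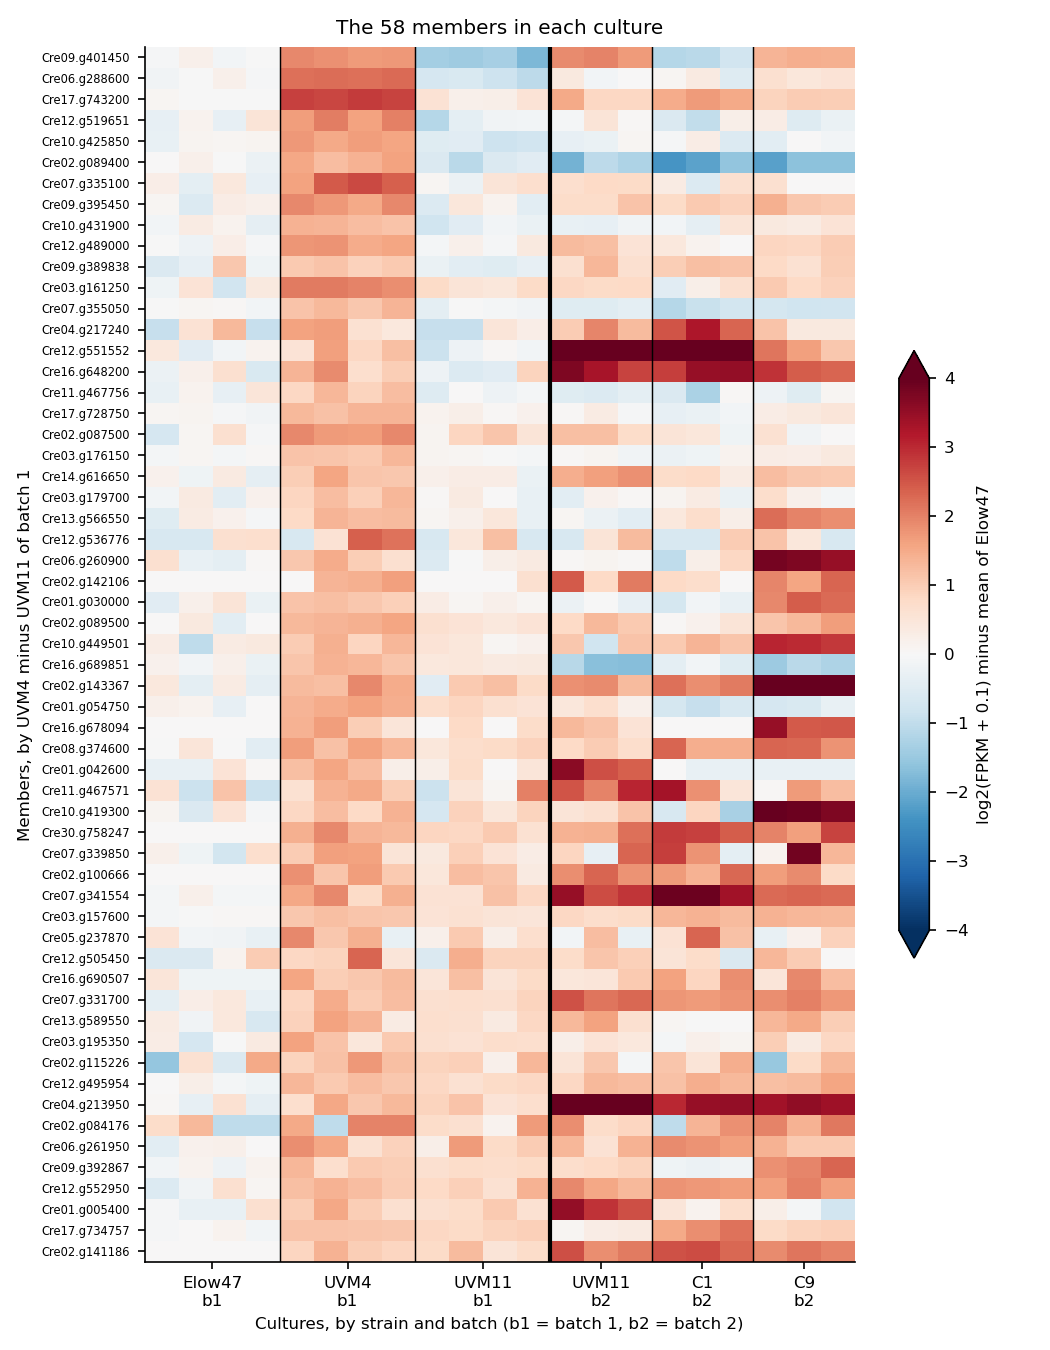
Rows are the 58 members, ordered by UVM4 minus UVM11 of batch 1 from the largest at the top, and columns are the 21 cultures by strain and batch, with the thick line between the batches. Colour is log2(FPKM + 0.1) minus the mean of Elow47, cut at 4 in either direction, and it shows most UVM4 cultures above Elow47, with a mixed picture in batch 2, where Cre12.g551552 and Cre04.g213950 were far above Elow47 in UVM11.

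The complemented strains were compared with UVM11 within batch 2, to describe the members in UVM11 transformants that hold a wild-type SRTA allele. Each complemented strain is a single transformant that also holds the hygromycin resistance gene. The paper states that both had been kept on medium with hygromycin for years. The SRTA allele cannot be told apart from these other differences. The cuts did not use the samples of batch 2, but the abundance filter did, since it was taken over all cultures. These comparisons say nothing directly about UVM4, which was not in batch 2. A call needed an absolute log2 fold change above 1 on the log2(FPKM + 0.1) scale, which understates changes of weakly expressed genes, and an adjusted p below 0.01 from limma with Benjamini-Hochberg adjustment over all 15425 genes. UVM11-C1 and UVM11-C9 were compared with the same 3 UVM11 cultures. In all, 17 members were called in one complemented strain or the other against UVM11, and 36 were called in no comparison of batch 2. The matching shares of all tested genes were not computed for these pooled counts, so nothing about the members is read from them.

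In UVM11-C1, 5 members fell and 2 rose against UVM11. Over all tested genes 0.908% fell and 0.331% rose. The median log2 fold change was -0.12 over the members and 0.00 over all tested genes. In 19 members every UVM11-C1 culture was below every UVM11 culture (15.7% of all tested genes), and in 8 every one was above (13.6%). Cre09.g401450 fell from 3.38, 3.58 and 2.96 FPKM to 0.324, 0.337 and 0.451 FPKM, which is a log2 fold change of -2.86 (SE 0.13, adjusted p = 1.96e-12 by limma). UVM11-C1 was thus between the levels of UVM11 and Elow47 in batch 1. In UVM11-C9 this gene stayed at 2.26, 2.45 and 2.40 FPKM, which is a log2 fold change of -0.46 (SE 0.13, adjusted p = 0.00647 by limma) that did not reach the fold cut.

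Cre01.g042600 (chromosome 1, 6010670 to 6012595) had 1.40, 0.628 and 0.549 FPKM in the UVM11 cultures, was listed at 0 in 2 UVM11-C1 cultures with 0.0238 FPKM in the remaining one, and was at 0 in all 3 UVM11-C9 cultures. Its log2 fold change was -3.05 in UVM11-C1 (SE 0.35, adjusted p = 3.82e-06 by limma) and -3.16 in UVM11-C9 (SE 0.35, adjusted p = 4.96e-07 by limma). Outside UVM11 of batch 2 its mean was 0.06 FPKM. It thus passed the abundance filter only through the group in which it was higher, so these p-values are not independent of the filter. Cre01.g005400 (chromosome 1, 971012 to 975436) had 1.83, 1.15 and 0.914 FPKM in UVM11, whereas UVM11-C1 had 0.139, 0.0888 and 0.178 FPKM and UVM11-C9 had 0.101, 0.0620 and 0 FPKM. It fell by 2.54 on the log2 scale in UVM11-C1 (SE 0.31, adjusted p = 8.39e-06 by limma) and by 3.19 in UVM11-C9 (SE 0.31, adjusted p = 8.25e-08 by limma). These 2 genes were the only members called lower in both complemented strains, and none was called higher in both. How many of all tested genes were called lower in both strains was not computed. In UVM11 of batch 1 and in UVM4 these 2 genes were below 0.4 FPKM in every culture, so that the level from which they fell was that of UVM11 in batch 2. Under the fold cut, other members also moved the same way in both complemented strains. Cre03.g157600 was higher by 0.57 in each (SE 0.06, adjusted p = 7.71e-07 in UVM11-C1 and 1.615e-07 in UVM11-C9 by limma). Cre04.g213950 was lower by 0.99 in UVM11-C1 and by 0.89 in UVM11-C9 (SE 0.24, adjusted p = 0.00723 and 0.00449 by limma).

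Cre01.g054750 went from 1.82, 2.13 and 1.52 FPKM in UVM11 to 0.758, 0.648 and 0.801 FPKM in UVM11-C1, which is a log2 fold change of -1.19 (SE 0.14, adjusted p = 6.21e-06 by limma). In UVM11-C9 it was at 0.773, 0.818 and 1.04 FPKM, and its log2 fold change of -0.97 (SE 0.14, adjusted p = 1.35e-05 by limma) was just short of the fold cut. All 6 cultures of the complemented strains were below all cultures of UVM11 in batch 2. Elow47 in batch 1 had 1.51, 1.43, 1.02 and 1.30 FPKM. Cre14.g616650 (chromosome 14, 1283463 to 1292118) fell by 1.02 in UVM11-C1 (SE 0.21, adjusted p = 0.00198 by limma), from 0.913 ± 0.136 FPKM to 0.402 ± 0.0841 FPKM (SD, n = 3). That call was lost under 5 of 16 other settings, with a log2 fold change of -0.92 without UVM11 replicate 7 and -0.87 without UVM11-C1 culture c.

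Of the members that rose in UVM11-C1, Cre17.g734757 went from 29.8, 34.3 and 35.8 FPKM to 80.1, 102 and 127 FPKM, which is a log2 fold change of 1.60 (SE 0.11, adjusted p = 1.46e-09 by limma). These levels were above those of UVM4 in batch 1, but strain and batch cannot be told apart there. UVM11 itself had means of 51.4 FPKM in batch 1 and 33.3 FPKM in batch 2. UVM11-C9 had 48.2, 52.5 and 54.9 FPKM, above UVM11 in every culture, with a log2 fold change of 0.64 (SE 0.11, adjusted p = 9.37e-05 by limma) that was under the fold cut. Cre16.g689851 rose from 0.138 ± 0.0580 FPKM to 0.428 ± 0.0710 FPKM (SD, n = 3), which is a log2 fold change of 1.17 (SE 0.17, adjusted p = 9.13e-05 by limma). That call was lost under 3 of 16 other settings, namely a pseudocount of 1, the treat method of limma and a model of batch 2 only.

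In UVM11-C9, 9 members rose and 3 fell against UVM11, or 15.5% and 5.17% of the members. Over all tested genes 1.40% rose and 2.18% fell. The median log2 fold change was 0.10 over the members and -0.01 over all tested genes, so that the members that rose were set in a list that hardly moved. In 14 members every UVM11-C9 culture was above every UVM11 culture (28.2% of all tested genes), and in 13 every one was below (27.7%). Cre06.g260900 (chromosome 6, 1640134 to 1641349) had 0.527, 0.554 and 0.534 FPKM in UVM11 and 8.49, 7.94 and 6.67 FPKM in UVM11-C9, which is a log2 fold change of 3.60 (SE 0.34, adjusted p = 6.41e-08 by limma). Its level in UVM11-C9 was also above all 4 UVM4 cultures of batch 1, which had 1.18, 1.59, 1.12 and 0.852 FPKM. Strain and batch cannot be told apart between them.

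The other members that rose in UVM11-C9 were likewise above every UVM4 culture of batch 1 in that strain, with the same limit. Cre02.g143367 (chromosome 2, 9111819 to 9114475) went from 0.574, 0.606 and 0.364 FPKM to 5.66, 5.29 and 6.36 FPKM, which is a log2 fold change of 3.28 (SE 0.32, adjusted p = 1.14e-07 by limma). Cre10.g419300 (chromosome 10, 227414 to 229000) went from 0.250, 0.282 and 0.444 FPKM to 4.09, 3.67 and 3.19 FPKM, which is a log2 fold change of 3.16 (SE 0.43, adjusted p = 7.01e-06 by limma). In both genes UVM11-C9 did not overlap with any other strain. Cre10.g449501 (chromosome 10, 4071800 to 4073425) reached 2.998 ± 0.243 FPKM from 0.554 ± 0.366 FPKM, and Cre01.g030000 (chromosome 1, 4420963 to 4426484) reached 2.77 ± 0.483 FPKM from 0.437 ± 0.0574 FPKM (SD, n = 3). Their log2 fold changes were 2.47 (SE 0.38, adjusted p = 2.83e-05 by limma) and 2.41 (SE 0.20, adjusted p = 1.22e-08 by limma). The remaining 4 of the 9, Cre13.g566550, Cre16.g678094, Cre08.g374600 and Cre09.g392867, rose by 1.24 to 2.21 on the log2 scale, to means of 0.470 to 1.08 FPKM.

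Against these, Cre12.g551552 fell in UVM11-C9 from 12.4, 12.1 and 8.52 FPKM to 1.65, 1.15 and 0.732 FPKM, which is a log2 fold change of -3.16 (SE 0.31, adjusted p = 1.23e-07 by limma). It was at 9.99, 15.8 and 20.6 FPKM in UVM11-C1, where it was not called (log2 fold change 0.45, SE 0.31, adjusted p = 0.347 by limma). Of the members called against UVM11, Cre01.g042600 (both complemented strains) and Cre16.g678094 (UVM11-C9) had means of 0.1 FPKM or less outside the group in which they were higher. They passed the abundance filter only through that group, so their calls are not independent of it. The same held for Cre16.g678094 and 1 other member called higher in UVM11-C9 than in UVM11-C1.

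**Figure D4:**
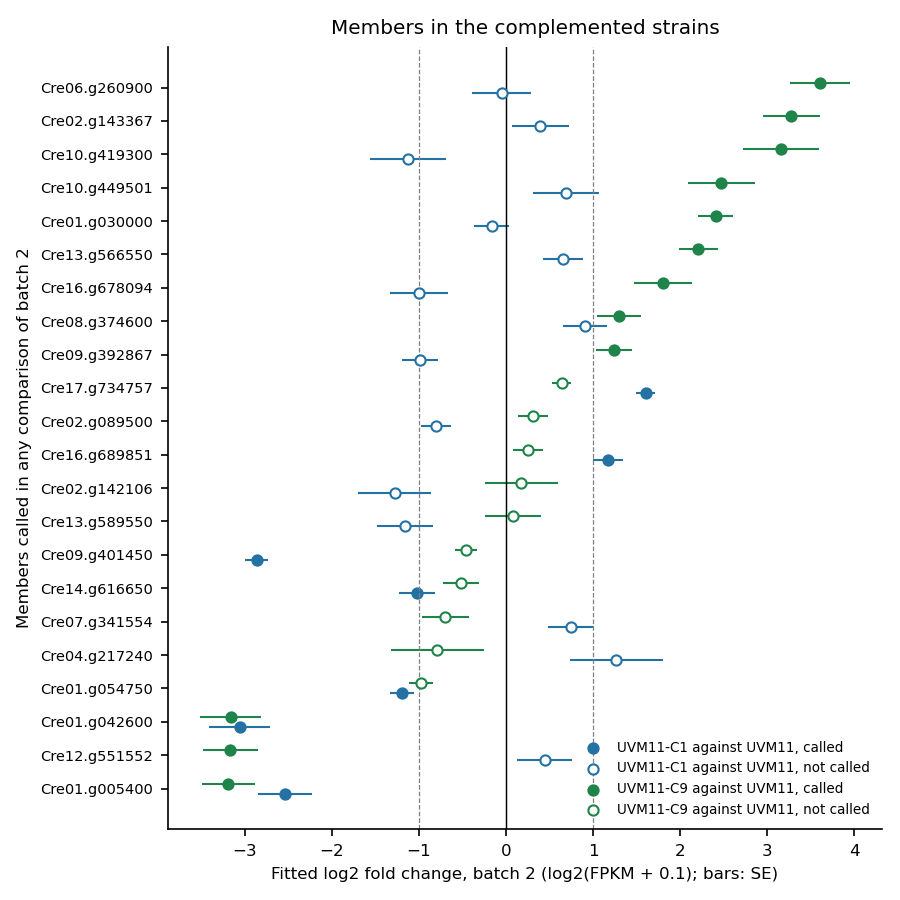
Fitted log2 fold changes against UVM11 in batch 2 with standard errors for the 22 members called in any comparison of batch 2, in UVM11-C1 (blue) and UVM11-C9 (green), with filled points for calls, open points for none, and dashed lines at 1 and -1. Cre01.g042600 and Cre01.g005400 lie left of -1 in both strains, and 9 members lie right of 1 in UVM11-C9 with open points for UVM11-C1.

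The complemented strains also differed from each other. In UVM11-C9 against UVM11-C1, 12 members were higher (1.79% of all tested genes) and 3 lower (1.88%), and the median log2 fold change was 0.22 over the members and 0.01 over all tested genes. Every UVM11-C9 culture was above every UVM11-C1 culture in 19 members (28.1% of all tested genes) and below in 8 (25%). Of the 9 members that rose in UVM11-C9 against UVM11, 8 were also higher than in UVM11-C1, and Cre08.g374600 was not, with a log2 fold change of 0.39 (SE 0.25, adjusted p = 0.212 by limma). Both comparisons use the same UVM11-C9 cultures and are not independent. The matching share of all tested genes was not computed, so nothing about the members is read from this overlap. The difference was largest in Cre10.g419300, with 4.28 (SE 0.43, adjusted p = 1.7e-07 by limma), and in Cre06.g260900, with 3.65 (SE 0.34, adjusted p = 6.25e-08 by limma). Cre09.g401450 differed by 2.40 (SE 0.13, adjusted p = 2.26e-11 by limma). Cre16.g678094 was listed at 0 in all UVM11-C1 cultures and at 1.01, 0.449 and 0.454 FPKM in UVM11-C9. Lower in UVM11-C9 were Cre12.g551552, with a log2 fold change of -3.61 (SE 0.31, adjusted p = 2.46e-08 by limma), and Cre04.g217240 (chromosome 4, 211731 to 212307) and Cre07.g341554 (chromosome 7, 4299161 to 4303452). Cre04.g217240 was at 0.991, 1.69 and 0.851 FPKM in UVM11-C1 and 0.320, 0.148 and 0.149 FPKM in UVM11-C9, and its call (log2 fold change -2.05, SE 0.53, adjusted p = 0.00349 by limma) was lost under 6 of 17 other settings. Its adjusted p by limma was 0.0225 without UVM11-C1 culture b and 0.0157 without UVM11-C9 replicate 2 or replicate 3. Cre07.g341554 went from 1.31 ± 0.294 FPKM in UVM11-C1 to 0.411 ± 0.0114 FPKM in UVM11-C9 (SD, n = 3).

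The members of largest gap between the mutants in batch 1 were mostly not called in batch 2, which is also true of all tested genes. The counts of calls are small, and no lack of change is read from them. Among the 25 members with UVM4 more than 1 above UVM11 of batch 1, 2 fell and 0 rose in UVM11-C1 by limma (0.908% and 0.331% of all tested genes), and 1 fell and 2 rose in UVM11-C9 (2.18% and 1.40%). In UVM11-C9 against UVM11-C1, 3 of them were higher (1.79%) and 2 lower (1.88%). Cre10.g425850 stayed at 6.30, 6.57 and 8.40 FPKM in UVM11. UVM11-C1 had 7.65, 9.84 and 5.37 FPKM and UVM11-C9 had 5.92, 8.002 and 7.42 FPKM, all far below UVM4 of batch 1. Its log2 fold changes were 0.07 (SE 0.17, adjusted p = 0.807 by limma) and 0.01 (SE 0.17, adjusted p = 0.983 by limma). Cre06.g288600 was at 0.715 ± 0.155, 0.663 ± 0.222 and 1.01 ± 0.0730 FPKM in UVM11, UVM11-C1 and UVM11-C9 (SD, n = 3). Cre17.g743200 had 0.119 ± 0.0645, 0.202 ± 0.0241 and 0.0996 ± 0.00903 FPKM in the same order, and neither gene was called. For Cre03.g176150 the levels were 45.9 ± 3.73, 43.4 ± 6.12 and 56.9 ± 3.23 FPKM, with a log2 fold change of 0.31 in UVM11-C9 (SE 0.09, adjusted p = 0.00573 by limma) that was under the fold cut.

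On the chromosomes the members were spread, with 9 on chromosome 2 (15.5% of members, 8.29% of tested genes), 7 on chromosome 12 and none on chromosome 15. No member was the direct neighbour of another. The nearest pair was Cre02.g089400 and Cre02.g089500 on chromosome 2, which differed from Elow47 by 1.45 and 1.41 in UVM4. In batch 2 the first had 0.747 ± 0.240 FPKM in UVM11 and the second 17.4 ± 3.12 FPKM (SD, n = 3). Of the 57 members on a chromosome, 4 (7.02%) lay next to a gene past the cut in both mutants, as did 1.03% of all tested genes. The neighbours are described after their values were seen. Cre17.g743200 and Cre17.g743250 are 140 bases apart, Cre02.g100666 and Cre02.g100700 48, Cre03.g157600 and Cre03.g157564 37, and Cre02.g141186 and Cre02.g141166 54. Short distances are common in this genome, with a median of 130 bases between neighbouring genes. Whether fragments of one gene were counted for its neighbour was not tested.

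In UVM4 the neighbour was more abundant than the member in 3 of these 4 pairs. Cre17.g743250 was listed at 0 in every Elow47 culture and had means of 0.893 ± 0.0552 FPKM (SD, n = 4) in UVM4 and of 0.560 ± 0.152 FPKM in UVM11. Cre02.g141166 had means of 0.140 ± 0.0409, 16.8 ± 0.780 and 13.9 ± 0.361 FPKM in Elow47, UVM4 and UVM11, while its neighbour Cre02.g141186 was listed at 0 in every Elow47 culture and had only 0.106 ± 0.0377 FPKM in UVM4, against 0.0792 ± 0.0416 FPKM in UVM11. In batch 2, neither gene was called in the pairs of Cre17.g743200 and Cre03.g157600, and in UVM11-C1 the log2 fold changes were 0.50 in Cre17.g743200 and 0.57 in Cre17.g743250. In the other pairs the neighbour alone was called. Cre02.g100700 fell by 3.97 in UVM11-C1 (SE 0.24, adjusted p = 1.41e-10 by limma) and by 2.88 in UVM11-C9 (SE 0.24, adjusted p = 1.13e-08 by limma), whereas Cre02.g100666 had log2 fold changes of -0.20 (SE 0.33, adjusted p = 0.7 by limma) and -0.56 (SE 0.33, adjusted p = 0.164 by limma). Cre02.g141166 rose by 2.23 in UVM11-C1 (SE 0.10, adjusted p = 2.98e-12 by limma), whereas Cre02.g141186 was not called, with 0.31 (SE 0.23, adjusted p = 0.376 by limma). The difference between the members of a pair was not tested.

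**Figure D5:**
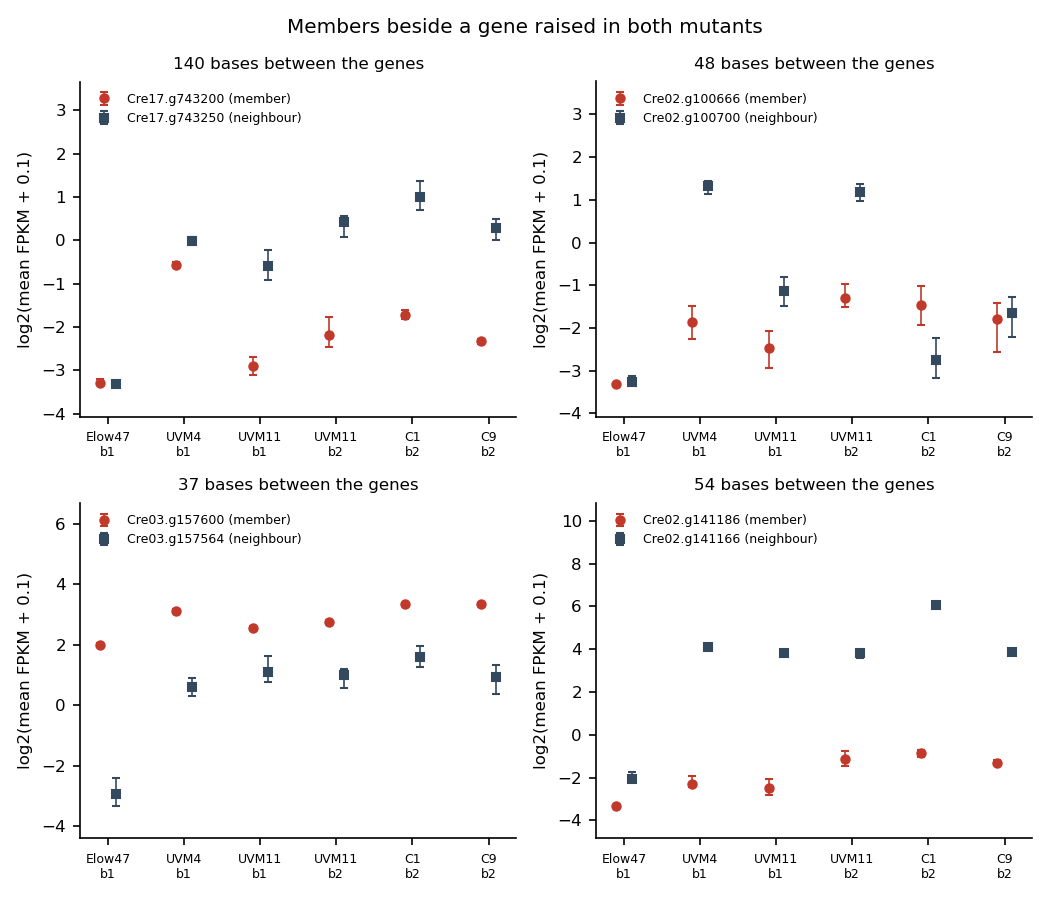
Mean abundance as log2(mean FPKM + 0.1) by strain and batch for 4 members (red circles) and the adjacent gene that was past the cut in both mutants (dark squares), with bars from the lowest to the highest culture. In batch 2 Cre02.g100700 fell in UVM11-C1 and UVM11-C9 while Cre02.g100666 was not called, and Cre02.g141166 rose in UVM11-C1 while Cre02.g141186 was not called.

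Another 3 members lay next to a gene past the cut in UVM11 and not in UVM4, as did 1.05% of all tested genes. Of these, Cre17.g734757 and its neighbour Cre17.g734773, 22 bases away, both rose in UVM11-C1, the neighbour by 1.08 (SE 0.17, adjusted p = 0.000145 by limma). Cre02.g143367 rose by 3.28 in UVM11-C9, while Cre02.g143347 had 0.74 (SE 0.21, adjusted p = 0.00711 by limma) and was not called. Cre09.g389801 was at 22.4 ± 0.400 FPKM in UVM11 and fell by 1.22 in UVM11-C1 (SE 0.07, adjusted p = 3.37e-11 by limma), while Cre09.g389838 was not called there. Besides, 4 members overlap another gene model (Cre07.g341554, Cre07.g339850, Cre13.g589550 and Cre05.g237870), and the strand setting of the quantification is not stated, so that their reads cannot be told apart from those of the partner.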

How the data were processed

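The authors aligned poly(A) RNAseq reads with STAR (version 2.4.0j, alignIntronMax 3000) to version 5 of the Chlamydomonas genome, computed FPKM with cuffdiff (version 2.2.1) for the version 5.5 gene models, and deposited these FPKM values for each culture. The labels and the paper name different library kits, and the strand setting is not given in the sources used here. Depth in reads is unknown, so no counting interval was computed. In genes of low abundance, 97.9% of 5174 values were whole multiples of a fragment step, to within 0.1. Single reads were not recovered from these values, and no count test was run.

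Each column was assigned by its label. The UVM11-C1 columns differ from those of UVM11 by letter case, so its cultures are named a, b and c here, in the order of the numbers that end the column names. FPKM were taken as log2(FPKM + 0.1) and genes with a mean of at most 0.1 FPKM (2316) were left out. Without that filter 65 genes met the cuts, and 7 of these were left out by it. Of the members, 3 had a mean of 0.1 FPKM or less outside UVM4, among them Cre17.g743200. One limma model (version 3.58.1, R version 4.3.3, trend) held all 6 groups of strain and batch, with tests within batch 2 only and two-sided p-values. On simulated data it called 199 of 200 changed genes in UVM11-C1 against UVM11 and 197 of 200 in UVM11-C9 against UVM11-C1. There were 0 false calls in 15425 genes. Recovery near the fold cut or at low abundance was not tested separately, so nothing about single calls is read from these counts. Tables were made with Python (version 3.11.15) and pandas (version 2.3.3).

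Members and lists were chosen with earlier results of these data known. The genes named are the 10 members of highest FPKM in UVM4, of largest UVM4 minus Elow47 and of largest UVM4 minus UVM11, up to 5 called members per direction in each comparison of batch 2, the 2 genes on each side of each cut, and SRTA. Others are marked or complete a count. Positions come from the RefSeq table of the version 5.5 assembly, which holds no names or products, so that neither function classes nor near-identical copies were examined.

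Alternatives were pseudocounts of 1 and 0.01, a filter at 1 FPKM or none, medians per strain, quantile normalization, the treat method of limma, a threshold of 0.05 for the adjusted p, a model of batch 2 only, a replicate block for UVM11-C9 against UVM11-C1 and leaving out each library. A filter on the cultures outside the higher group was added after seeing the data.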

Additional observations from a re-analysis of the deposited data

Results flagged for a closer look

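The effects in the 2 complemented strains differed in 15 members by a test of the difference itself (UVM11-C9 against UVM11-C1, limma with Benjamini-Hochberg adjustment over all genes). Each passed the fold cut of 1 with an adjusted p below 0.01, and smaller differences are not counted here. Of these 15 members, 12 were higher in UVM11-C9 (1.79% of all tested genes) and 3 lower (1.88%). Among those named in the report, the log2 difference was 4.28 in Cre10.g419300, 3.65 in Cre06.g260900, 2.88 in Cre02.g143367, 2.80 in Cre16.g678094, 2.57 in Cre01.g030000, 2.40 in Cre09.g401450, 2.22 in Cre09.g392867, 1.78 in Cre10.g449501, 1.56 in Cre13.g566550 and 1.11 in Cre02.g089500. It was -3.61 in Cre12.g551552, -2.05 in Cre04.g217240 and -1.44 in Cre07.g341554. The 2 others, Cre02.g142106 with 1.45 (adjusted p = 0.00693) and Cre13.g589550 with 1.24 (adjusted p = 0.00368), were each below 0.5 FPKM in all cultures of batch 2. Outside UVM11-C9, Cre02.g142106 had a mean of 0.088 FPKM, so that it passed the abundance filter only through that strain.

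Single cultures stood apart from the other 3 of their strain in 2 of 57 groups examined (19 members in 3 strains of batch 1), where chance gives about 1 in 20. Elow47 replicate 1 had 6.419 FPKM of Cre10.g425850, against 8.35 to 8.68 FPKM in the others. The same culture had 0.008915 FPKM of Cre17.g743200, which the others list at 0. With the others at 0, any value above 0 stands apart by this measure. The 2 groups found are no more than the rate of 1 in 20 gives, so nothing is read from them.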

How the results depend on the processing

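The number of members was 20 with a pseudocount of 1 (10 shared with the 58), 88 with a pseudocount of 0.01 (37 shared) and 21 with a filter at 1 FPKM, and it ranged from 52 to 65 when 1 library of batch 1 was left out, with 30 members kept each time. The count with UVM4 wholly above Elow47 ranged from 45 to 50 in the same way. With a pseudocount of 1, 1 member was higher and 1 lower in UVM11-C1 against UVM11, 5 higher in UVM11-C9 against UVM11, and 7 higher and 1 lower in UVM11-C9 against UVM11-C1. With the filter at 1 FPKM these were 1 and 2, 2 higher and 1 lower, and 4 and 1, as 21 members were tested. With treat they were 1 and 3, 5 higher, and 7 and 1. Quantile normalization gave 4 higher in UVM11-C1 and the model of batch 2 gave 1. The other counts stayed within 1.5 times, also with the filter outside the higher group.

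The median log2 fold change of the members moved by more than the replicate spread in UVM11-C1 with a pseudocount of 1 (-0.050) and quantile normalization (-0.038), in UVM11-C9 with pseudocounts of 1 (0.021) and 0.01 (0.162) and quantile normalization (0.194), and between them with 0.076, 0.257 and 0.177 in that order. With 1 library left out the medians ranged from -0.200 to -0.071 in UVM11-C1, from 0.045 to 0.163 in UVM11-C9 and from 0.132 to 0.253 between them. None changed sign. Of 34 single calls, 14 held under each alternative run, 20 were lost under at least 1, of which 13 only with a pseudocount of 1 or treat, and none reversed. The calls of Cre02.g142106 and Cre13.g589550 in UVM11-C9 against UVM11-C1 were lost under 10 and 8 alternatives, and by limma their adjusted p rose to between 0.0129 and 0.0373 and between 0.0104 and 0.02 without UVM11-C1 culture b or c, UVM11-C9 replicate 1, or UVM11-C9 replicate 3 and 2, respectively. Cre02.g089500 had 0.949 without UVM11-C9 replicate 3. The cause of these moves was not tested. With a replicate block on the numbers at the end of the UVM11-C9 and UVM11-C1 column names, 12 members were higher and 3 lower, all shared with the fit without it. The deviations of same-numbered cultures correlated at 0.0562, 0.0345 and 0.0913 across 15425 genes, and UVM11-C1 culture b correlated more with UVM11-C9 replicate 1 (0.0473), so the numbers were not taken as pairs. UVM11 of batch 2 shares no number with the complemented strains, and batch 1 was not tested.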
